A study of Mus musculus with 6 samples.

Results

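The genes described here mark immune cells of the mouse vomeronasal organ, a blind-ended tube in the nasal septum that senses pheromones. They were listed by name as genes of macrophages, antigen presentation, lymphocytes, plasma cells and neutrophils. All 37 listed genes were found among the 35450 genes to which the transcript estimates summed, and they fall into 7 classes. Bulk poly(A) RNA was sequenced from 6 littermate mice at postnatal day 60: 3 Cnpy1+/+ wild types (replicates 1 and 3 male, replicate 2 female) and 3 Cnpy1-/- knockouts (replicates 1 and 2 male, replicate 3 female). Each library pooled the vomeronasal organs from both sides of 1 mouse after the outer bone had been taken off. The labels name the knockout genotype but no Cre driver or tissue restriction, and they mention no perfusion, so leukocytes in blood vessels and leukocytes settled in the tissue cannot be told apart.

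Macrophages clear debris and dying cells, among them olfactory and vomeronasal neurons, which are replaced throughout life. They secrete C1q, the recognition unit of the classical complement pathway, and with dendritic and B cells they load peptides on MHC class II proteins, whose invariant chain Cd74 blocks the groove until the loading compartment is reached. Plasma cells under mucosal and glandular epithelia release IgA joined by the J chain (Jchain), which the epithelial receptor Pigr carries to the surface, and neutrophils hold large stores of the calprotectin subunits S100a8 and S100a9.

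Start-site sequences were searched for a pair of short elements known from immune promoters, and 3 sequences that hold an element are shown. Their genes belong to the C1q and MHC class II groups, whose members kept nearly constant ratios to each other in all 6 mice. The elements are not a trait of these groups as a whole. C1qc also had a match and is not shown. C1qa, Cd74 and H2-Ab1 were not among the genes with a match, or had no start site in the source. Each run is the 250 bases before the RefSeq transcription start on GRCm38.p6, 5′ to 3′ on the gene's own strand. They cover chr4:136886201-136886450 (minus strand) for C1qb, chr17:34287824-34288073 (minus strand) for H2-Aa and chr17:34305617-34305866 (plus strand) for H2-Eb1. Capitals mark GAGGAA, a core of sites for the myeloid factor PU.1, or GATTGG, which on the other strand reads as the CCAAT-type element known as the Y box of class II promoters.
C1qb: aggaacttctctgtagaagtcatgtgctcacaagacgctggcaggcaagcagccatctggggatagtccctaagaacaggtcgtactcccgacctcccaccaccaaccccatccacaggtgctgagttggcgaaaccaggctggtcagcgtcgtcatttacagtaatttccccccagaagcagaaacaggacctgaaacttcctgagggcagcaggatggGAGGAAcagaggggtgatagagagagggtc
H2-Aa: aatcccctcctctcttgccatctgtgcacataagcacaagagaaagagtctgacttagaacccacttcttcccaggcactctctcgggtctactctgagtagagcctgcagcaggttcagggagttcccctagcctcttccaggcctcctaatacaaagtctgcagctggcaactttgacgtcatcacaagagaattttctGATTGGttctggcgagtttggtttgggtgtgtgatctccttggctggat
H2-Eb1: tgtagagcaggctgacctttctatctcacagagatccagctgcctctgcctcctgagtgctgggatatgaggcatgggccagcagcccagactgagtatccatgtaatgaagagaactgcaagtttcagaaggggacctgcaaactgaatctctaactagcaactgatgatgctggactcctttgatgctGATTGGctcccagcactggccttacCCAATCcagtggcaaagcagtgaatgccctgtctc
GAGGAA begins 30 bases before the C1qb start. GATTGG begins 49 bases before the H2-Aa start and 60 bases before the H2-Eb1 start, where its other-strand form CCAATC also begins 35 bases before the start. The RefSeq table held start sites for 28 of the 37 listed genes. In windows from 250 bases before to 50 bases after the start, either strand, GAGGAA occurred in 16 of these 28 (57.1%) and in 31.3% of all genes in the table, and GATTGG in 7 of 28 (25.0%) and in 18.2% of all genes. These are letter matches only.

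The deposited tables held 60969508 to 71670766 estimated reads per library. Cnpy1, the targeted gene, stood at 280.0, 303 and 325 CPM (counts normalised to library size with TMM factors) in the wild types and at 67.2, 77.6 and 76.3 CPM in the knockouts, so every library matched its label and residual transcript remained. The single most abundant gene, Obp2a, took 13.2% to 19.8% of the TPM (transcripts normalised to a common total, a unit that corrects for transcript length) of a library, with the highest share in knockout 2. Between genotypes, edgeR's quasi-likelihood test called 127 of 16679 tested genes at an adjusted p below 0.05. Of these 13 (0.0779% of those tested) were higher and 114 (0.683%) lower in the knockouts.

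MHC class II genes were by far the most abundant class on the TPM scale, and the 7 classes stood in the same order in each of the 6 libraries. Summed TPM per library was 1253 to 1795 for the 4 MHC class II genes, 440.1 to 637 for the 16 macrophage genes, 184 to 235 for the 3 C1q genes, 71.8 to 163 for the 2 neutrophil genes and 51.1 to 84.0 for the 3 pan-leukocyte genes. The 5 T and NK cell genes summed to 4.30 to 7.50 TPM and the 4 B and plasma cell genes to 1.96 to 4.32 TPM. These ranges do not overlap between neighbouring classes except for the neutrophil with the pan-leukocyte sum and the T and NK cell with the B and plasma cell sum. The level of a class depends on which genes were listed and is no count of cells.

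**Figure D1:**
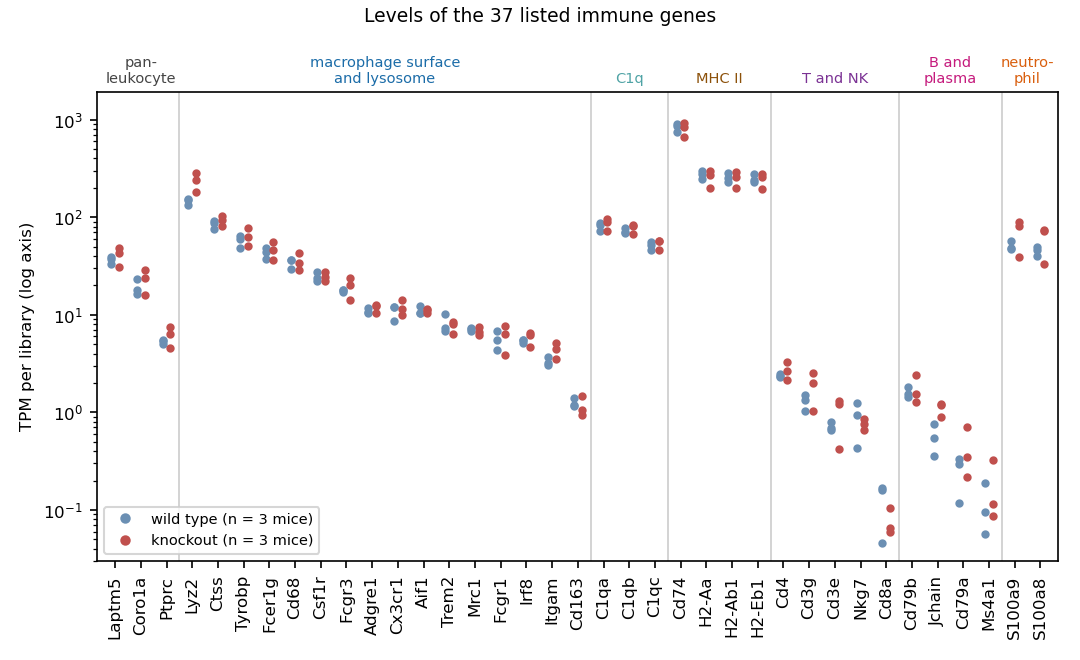
TPM of each of the 37 listed genes (log axis), 1 point per library, grouped by class and ordered by mean TPM within a class. Cd74 stands highest, at 659 to 932 TPM, and Cd8a and Ms4a1 lowest, and the points of both genotypes overlap for all genes but Lyz2 and Jchain.

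Between genotypes, none of the 37 listed genes passed edgeR's adjusted threshold, and 0 of 37 stand beside a background of 0.761% of all genes called. Their differences leaned one way: 32 of 37 log2 fold changes were above 0, with a median of 0.18, while 52.3% of all tested genes were above 0, with a median of 0.01. At an unadjusted p under 0.05 there were 7 listed genes, namely Ptprc, Itgam, Ctss, Lyz2, C1qa, C1qb and Jchain, against 10.5% of all genes. All 7 were higher in the knockouts, as were 4.55% of all genes at that level. DESeq2, run as an alternative, called 2 of the 37, Itgam and Lyz2, beside 2.45% of all genes. In bulk tissue, more or fewer cells of a type and more or less RNA per cell cannot be told apart. Of 8 genes of vomeronasal neurons, 5 had all knockouts below all wild types (8.95% of all tested genes did so) and 1, Gnai2, named after its values were seen, had all knockouts above (log2 0.17, SE 0.06). The median log2 difference of the 8 was −0.24. The part of these differences in the values of the immune genes was not tested.

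The rank order of the mice was similar for most of the listed genes, but not for all. The highest of the 6 libraries was knockout 3 for 17 listed genes and knockout 1 for 13, so that 30 of 37 peaked in one of those 2 knockouts, against 36.6% of all tested genes. Knockout 2 was the lowest of the 3 knockouts for 30 of 37 genes, against 33.1% of all genes. For the macrophage genes Csf1r, Adgre1, Aif1, Mrc1 and Cd163 and for Jchain the lowest knockout was knockout 3. For Cd8a it was knockout 1. Mrc1 and Cd163 were lower in knockout 3 than in any other of the 6 libraries. The lowest of all 6 libraries was wild type 3 for 13 listed genes (20.7% of all genes), wild type 1 for 11 (13.3%) and knockout 2 for 10 (15.6%). Without TMM factors knockout 2 was the lowest knockout for 32 of 37, against 52.2% of all genes. The wild types were less spread: the median coefficient of variation over the listed genes was 7.87% in wild types and 12.2% in knockouts, while over all genes it was 6.82% and 7.18%. Without knockout 2 the median of the remaining pair was 6.30%, and without knockout 1 or 3 it was 15.5% or 10.8%. Knockout 2 thus decided the wider spread in the knockouts.

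**Figure D2:**
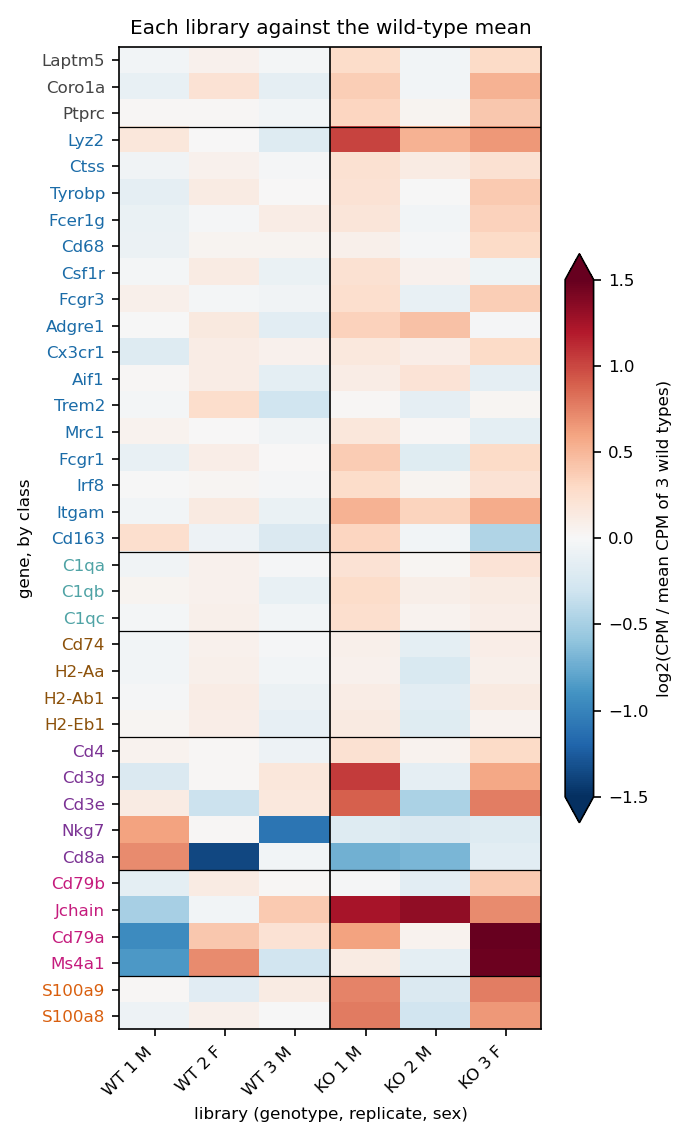
Log2 ratio of each library's CPM to the mean of the 3 wild types, 1 row per listed gene coloured by class and 1 column per library (M male, F female). Mostly red columns for knockouts 1 and 3 and a pale column for knockout 2 show the order of the mice. Each of the 4 MHC class II rows has its lowest value in knockout 2, by a small step on this scale. Other rows, such as Cd8a, Cd3e and S100a8, are bluer in that column.

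Whether all knockouts lay above all wild types depended on the unit. With TMM-scaled CPM this held for 8 of 37 genes (Ptprc, Itgam, Ctss, Lyz2, Irf8, C1qb, Cd4 and Jchain), beside 7.22% of all tested genes, and the reverse held for none. With CPM left unscaled it held for Itgam, Lyz2 and Jchain, beside 3.8% of all genes, and with TPM for Lyz2 and Jchain, beside 1.58%. The groups of Lyz2 and Jchain therefore did not overlap in any of the 3 units.

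**Figure D3:**
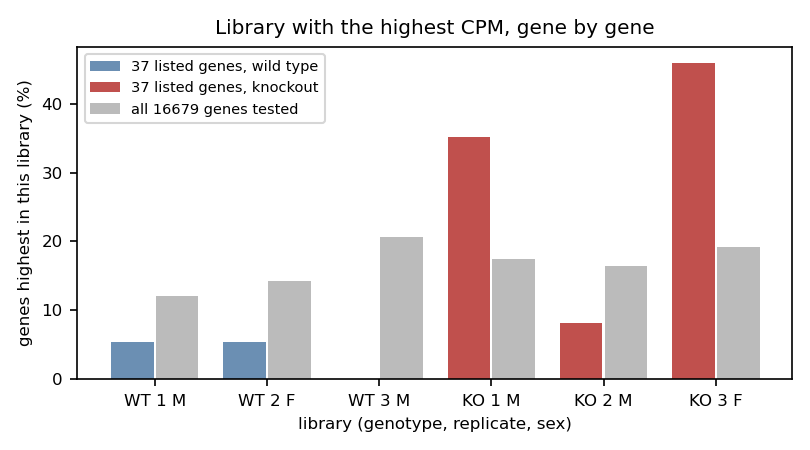
Share of genes (percent) whose highest TMM-scaled CPM falls in each library, for the 37 listed genes (coloured bars) and for all tested genes (grey bars). Knockouts 1 and 3 hold 13 and 17 of the 37 listed genes, and wild type 3 holds none.

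Pan-leukocyte genes followed this order closely. Ptprc, the CD45 phosphatase found on all leukocytes, measured 17.5, 17.5 and 16.7 CPM in wild types and 21.5, 17.7 and 22.9 CPM in knockouts. Knockouts 1 and 3 stood clear of the wild types, and knockout 2 lay only just above them. The log2 fold change of Ptprc was 0.26 (adjusted p by edgeR 0.381, SE 0.10). Laptm5, a lysosomal protein of blood-lineage cells, had a log2 difference of 0.18 (SE 0.09), and Coro1a, an actin regulator of leukocytes, one of 0.30 (SE 0.15), and for both knockout 2 lay within the wild types. The transcript Ptprc-204 (29 exons) took 15.5% to 22.5% of Ptprc reads in wild types and 5.14% to 15.8% in knockouts, and the groups overlapped by knockout 1.

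Among macrophage genes, 14 of 16 log2 fold changes were above 0 (52.3% of all genes), with a median of 0.18, and 0 of 16 were called by edgeR. At an unadjusted p under 0.05 there were 3, against 10.5% of all genes. Lyz2, the lysozyme of macrophages and neutrophils (chr10:117277331-117282321, minus strand), had the largest difference of the class. It measured 140.1, 124.5 and 109 CPM in wild types and 252, 178 and 195 CPM in knockouts. All knockouts lay above all wild types, knockout 1 farthest. Which cells made the Lyz2 RNA cannot be told from bulk tissue and was not tested. The group means were 124 ± 15.8 and 209 ± 38.6 CPM (SD, n = 3 each), which differed by 0.75 on the log2 scale (adjusted p by edgeR 0.0646, SE 0.14). Over the 14 alternative fits the edgeR or DESeq2 adjusted p of Lyz2 ran from 5.07e-07 (DESeq2) to 0.272, and its log2 fold change from 0.59 to 0.85. With low-count genes kept, edgeR called Lyz2 at an adjusted p of 0.0215, beside 0.695% of all genes. The paralog Lyz1 shares 32.8% of the 31-base words of Lyz2, so reads could be split between them, but Lyz1 stood at 0.295 to 1.28 CPM, and the 2 genes summed gave a log2 ratio of 0.75.

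Itgam, the CD11b chain of the integrin Mac-1 on macrophages, monocytes and neutrophils (chr7:128062640-128118491, plus strand), measured 10.7, 12.1 and 10.3 CPM in wild types and 15.9, 13.9 and 16.3 CPM in knockouts. The groups did not overlap on this scale, while on the TPM scale knockout 2 (3.51) lay below wild type 2 (3.67). Its log2 fold change was 0.47 (adjusted p by edgeR 0.083, SE 0.09), and DESeq2 gave an adjusted p of 0.00142, the lowest over the 14 alternatives, whose highest was 0.293. Another gene model that overlaps Itgam on the same strand, Gm49368, shares 67.2% of the 31-base words of Itgam, and summing both left the log2 ratio at 0.47.

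**Figure D4:**
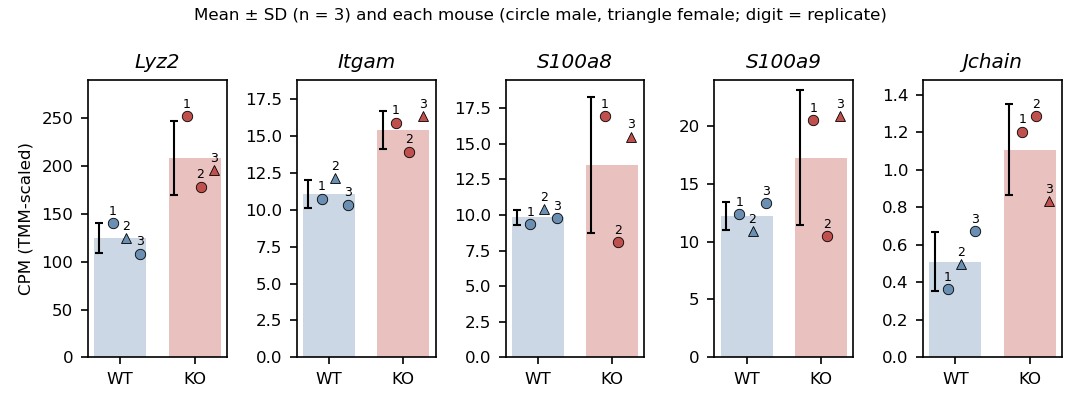
TMM-scaled CPM of Lyz2, Itgam, S100a8, S100a9 and Jchain in each mouse (points; digit, replicate), with bars at the mean and error bars of 1 SD (n = 3 per genotype). Lyz2, Itgam and Jchain do not overlap between genotypes, while knockout 2 lies below the wild types for S100a8 and S100a9.

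Ctss, a lysosomal protease that trims the class II invariant chain, was less variable: 72.2, 78.3 and 74.3 CPM in wild types against 87.5, 81.7 and 88.0 CPM in knockouts. All knockouts were above the wild types, by a log2 fold change of 0.19 (adjusted p by edgeR 0.254, SE 0.06). Irf8, a transcription factor of monocytes and dendritic cells, stood at 10.5 to 10.8 CPM in wild types and at 10.9 to 12.9 CPM in knockouts (log2 0.18, SE 0.08). Adgre1, the F4/80 antigen, differed by 0.27 (SE 0.13) and was highest in knockout 2 at 29.0 CPM, against the usual order of the knockouts. The fractalkine receptor Cx3cr1 (0.19, SE 0.09), the signalling adaptors Tyrobp (0.21, SE 0.11) and Fcer1g (0.18, SE 0.11), the IgG receptors Fcgr1 (0.19, SE 0.14) and Fcgr3 (0.19, SE 0.12) and the lysosomal glycoprotein Cd68 (0.12, SE 0.09) gave log2 differences above 0, and their groups overlapped. Fcgr3 shares 13.4% of its 31-base words with Fcgr2b, another IgG receptor gene, and the 2 genes summed gave a log2 ratio of 0.04.

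Csf1r, the receptor through which CSF1 sustains macrophages, measured 67.6, 75.4 and 64.8 CPM in wild types and 80.9, 72.6 and 66.3 CPM in knockouts. The groups overlapped throughout, with a log2 fold change of 0.08 (SE 0.09). Csf1r shares 14.6% of its 31-base words with Hmgxb3, and both genes summed gave a log2 ratio of 0.02. Mrc1, the mannose receptor, had a log2 difference of 0.02 (SE 0.08), Aif1, the actin-binding protein IBA1, one of 0.07 (SE 0.12), Trem2, a lipid-sensing receptor, one of −0.03 (SE 0.15) and Cd163, the haemoglobin scavenger receptor, one of −0.02 (SE 0.21). The sign of Mrc1 turned without scaling factors, to −0.01. The summed CPM of the 16 genes was 472, 486 and 443 in wild types and 652, 541 and 579 in knockouts. Without Lyz2 the other 15 summed to 332, 362 and 334 CPM against 399.9, 363 and 383 CPM, so that knockout 2 and wild type 2 nearly met.

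The 3 C1q chains are encoded side by side on chromosome 4 and assemble into the same protein. C1qb measured 50.03, 51.04 and 45.2 CPM in wild types and 59.2, 51.8 and 53.3 CPM in knockouts. All knockouts were above all wild types, though knockout 2 exceeded wild type 2 by a narrow margin. The log2 fold changes were 0.15 (SE 0.06) for C1qa, 0.17 (SE 0.07) for C1qb and 0.14 (SE 0.07) for C1qc, with edgeR adjusted p-values of 0.463, 0.453 and 0.524. On the TPM scale the chains kept close ratios in all 6 libraries: C1qa to C1qb was 1.05 to 1.19 and C1qc to C1qb was 0.669 to 0.735. C1qc was thus the lowest chain in every mouse.

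MHC class II genes had genotype differences near 0. Cd74 measured 655, 707 and 669 CPM in wild types and 712, 613 and 725 CPM in knockouts. Knockout 2 was the lowest mouse and knockout 3 the highest, with the wild types between knockout 2 and knockout 1. The log2 fold changes were 0.01 (SE 0.08) for Cd74, −0.02 (SE 0.09) for the alpha chain H2-Aa, 0.03 (SE 0.09) for the beta chain H2-Ab1 and 0.01 (SE 0.09) for the beta chain H2-Eb1. The edgeR adjusted p-values of these 4 genes were between 0.942 and 0.988. Without scaling factors the signs of Cd74 and H2-Eb1 turned, at −0.02 for both. Whether this class differed in its change from the macrophage class was not tested.

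The TPM of the class II chains, summed over all transcripts of each gene, was nearly equal within each mouse. H2-Aa to H2-Ab1 was 1.02 to 1.10 and H2-Eb1 to H2-Ab1 was 0.956 to 0.995, while Cd74 exceeded H2-Aa by 3.05 to 3.27 times. These are not ratios of coding transcripts: of H2-Eb1 reads, 52.7% to 62.6% were assigned to a transcript annotated for nonsense-mediated decay, 19.3% to 23.7% to one with a retained intron and 16.5% to 27.4% to the coding transcript H2-Eb1-203. For H2-Aa and H2-Ab1, 1 coding transcript took 99.5% to 99.9% of the reads. The Cd74 transcript with 9 exons, which encodes the longer invariant chain, took 20.96% to 23.4% of Cd74 reads, and the 8-exon transcript nearly all of the rest. Of 13 other genes of the class II machinery (transactivators, the H2-DM and H2-O chaperones and co-stimulators), 0 were called by edgeR, 0 had an unadjusted p under 0.05, and their median log2 fold change was 0.01. The most abundant were H2-DMb1 (log2 −0.11, SE 0.09) and H2-DMa (−0.0039, SE 0.09), subunits of the peptide-exchange catalyst.

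**Figure D5:**
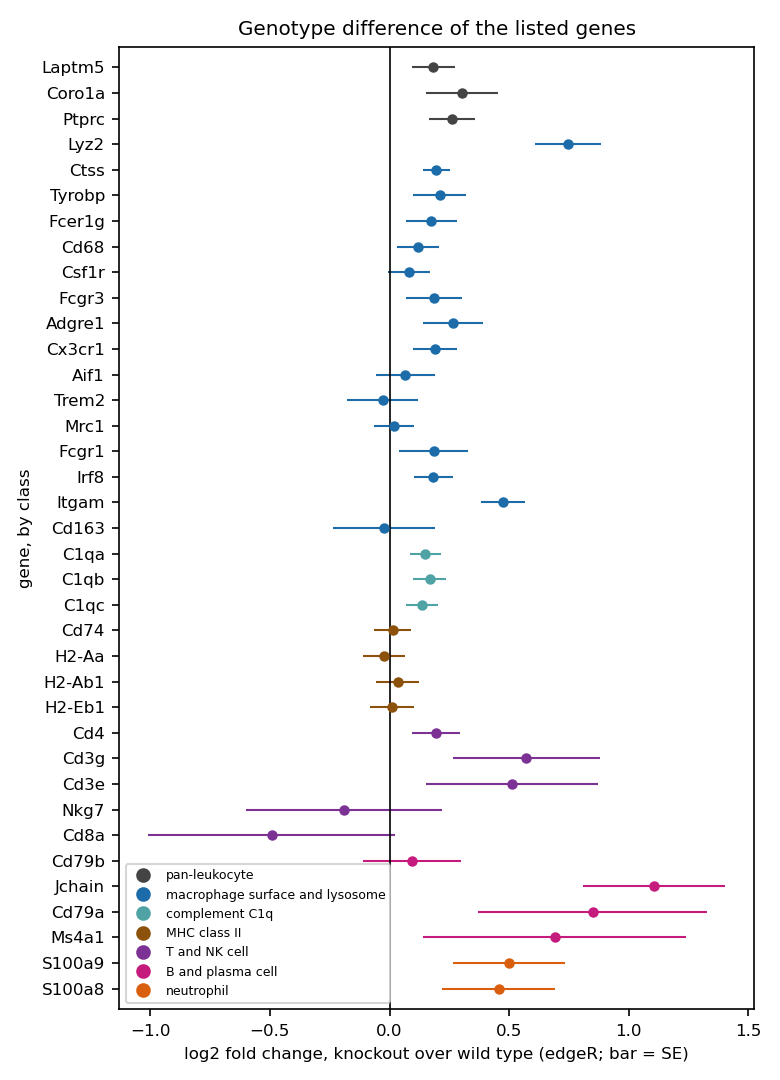
Log2 fold change of each listed gene, knockout over wild type, from edgeR (points) with its standard error (bars), coloured by class. Most points lie right of 0, Lyz2 (0.75) and Jchain (1.11) farthest for their classes, and the 4 MHC class II genes lie near 0.

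T and NK cell genes were scarce, and the depth limits what they can show. Cd4, also present on some myeloid cells, was the most abundant in TPM, with 5.47, 5.37 and 5.02 CPM in wild types and 6.18, 5.50 and 6.44 CPM in knockouts (log2 0.19, adjusted p by edgeR 0.560, SE 0.10). The groups did not overlap in CPM and overlapped in TPM. Cd3e, a chain of the T cell receptor complex, had 48, 33 and 55 reads in wild types and 74, 28 and 76 in knockouts. Knockouts 1 and 3 were high and knockout 2 was the lowest of all mice. Its log2 difference was 0.51 (SE 0.36) and that of its partner Cd3g was 0.57 (SE 0.31). Without knockout 1 these were 0.28 and 0.27, and without knockout 2 they were 0.83 for both. Cd8a, the co-receptor of cytotoxic T cells, had 6 to 27 reads per library (log2 −0.49, SE 0.52), and Nkg7, a granule protein of NK and cytotoxic T cells, had 16 to 46 (log2 −0.19, SE 0.41).

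Among 25 other T and NK cell genes, all tested, 21 log2 fold changes were above 0 (52.3% of all genes). Their median was 0.25, and edgeR called 0. At an unadjusted p under 0.05 there were 3, against 10.5% of all genes. The most abundant 2, Thy1 and Cd247, are not restricted to lymphocytes. Thy1, which neurons also carry, differed by 0.03 (SE 0.09) and Cd247, the zeta chain of the T cell receptor, by −0.25 (SE 0.10).

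Of the B and plasma cell genes, Jchain (chr5:88519809-88527891, minus strand) had the largest log2 fold change of all 37 listed genes. It had 24, 31 and 50 reads in wild types and 72, 75 and 56 in knockouts, or 0.362, 0.498 and 0.671 CPM against 1.20, 1.28 and 0.833 CPM. All knockouts were above all wild types, and knockout 2 was here the highest mouse, unlike in most other listed genes. The log2 fold change was 1.11 (adjusted p by edgeR 0.22, SE 0.30), and over the 14 alternatives the adjusted p ran from 0.0708 to 0.519. Cd79b, a signalling chain of the B cell receptor, differed by 0.09 (SE 0.21), its partner Cd79a by 0.85 (SE 0.48) and Ms4a1, the CD20 antigen of B cells, by 0.69 (SE 0.55). Ms4a1 had 9 to 46 reads and Cd79a 8 to 44 reads per library, and both were highest in knockout 3. Without knockout 3 the log2 difference was 0.0046 for Ms4a1 and 0.35 for Cd79a, and without wild type 1 it was 0.40 and 0.54. Without wild type 2 that of Ms4a1 was 1.21.

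Some plasma cell genes were near the floor of these libraries, and others were not. Tnfrsf17, the BCMA receptor of plasma cells, had 0 to 9 reads per library. Ighg3, an IgG heavy chain, had 0 in all 6, which allows up to 3 reads per library by counting error alone. Jchain, by contrast, had 24 to 75 reads per library. The IgA heavy chain gene Igha, named after its values were seen, varied widely between mice, and its reads are given under other observations. Of 21 other B and plasma cell genes, 14 were tested, 10 were above 0 (52.3% of all genes) and the median log2 was 0.16. EdgeR called 0, and 2 had an unadjusted p under 0.05, against 10.5% of all genes. The most abundant 2 were Pigr and Derl3, which act in epithelial and other secretory cells: Pigr differed by 0.40 (adjusted p by edgeR 0.32, SE 0.13) and Derl3, an endoplasmic reticulum protein of secretory cells, by −0.01 (SE 0.20).

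The 2 neutrophil genes differed widely among the knockouts. S100a8 measured 9.36, 10.4 and 9.79 CPM in wild types and 16.9, 8.09 and 15.5 CPM in knockouts. S100a9 measured 12.4, 10.9 and 13.3 CPM in wild types and 20.5, 10.5 and 20.8 CPM in knockouts. Knockouts 1 and 3 were well above every wild type for both genes and knockout 2 was below every wild type. With all mice the log2 fold changes were 0.46 (adjusted p by edgeR 0.56, SE 0.24) and 0.50 (adjusted p by edgeR 0.508, SE 0.23). Without knockout 2 edgeR called both, at 0.72 (adjusted p = 0.0202) and 0.76 (adjusted p = 0.0277), beside 0.569% of all genes called in that fit. The call therefore turned on 1 library, and over the other alternatives neither gene was called. The TPM ratio of S100a9 to S100a8 was 0.959 to 1.25.

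Genes of granulocytes from the marrow stage onward differed in their read counts. Elane, an azurophil granule protease, had 0 to 2 reads, Mpo, myeloperoxidase, 0 to 8, Ctsg 1 to 5, and the neutrophil surface marker Ly6g 1 to 6 reads per library. The granule protein genes Ngp and Camp, named after their values were seen, had 3 to 119 and 3 to 58 reads, both highest in wild type 2. Cxcr2, a chemokine receptor of mature neutrophils that was named after its values were seen, had 547 to 1338 reads. Of 16 genes in this list 11 were tested, 9 were above 0 (52.3% of all genes) and the median log2 was 0.23. EdgeR called 0, and 2 had an unadjusted p under 0.05, against 10.5% of all genes. The most abundant 2, Ltf and Lcn2, encode lactoferrin and lipocalin 2, which glands also secrete, and they reached 5410 to 9182 CPM and 193 to 368 CPM (log2 0.31, SE 0.13, and 0.53, SE 0.17). The summed CPM of the blood list (globins and platelet genes) was 328, 412 and 540.3 in wild types and 645, 407 and 351 in knockouts. Knockout 1 was highest and knockout 3 among the lower mice there, so blood genes and neutrophil genes were not ordered alike.

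Other macrophage genes from a separate list gave a similar median. Of 34 genes, 33 were tested, 28 were above 0 (52.3% of all genes) and the median log2 was 0.19. EdgeR called 0, and 6 had an unadjusted p under 0.05, against 10.5% of all genes. The most abundant 2 were Cbr2, a carbonyl reductase at 1541 to 1704 CPM (log2 0.02, SE 0.06), and Lgals3, the lectin galectin 3 (0.31, SE 0.18), and both are also made by other cells. Dendritic cell genes had a median of 0.22 with 8 of 11 above 0, and mast cell, basophil and eosinophil genes −0.17 with 0 of 8 above 0. The summed CPM of that last list was 67.9, 38.9 and 37.1 in wild types and 39.5, 45.2 and 40.2 in knockouts, so wild type 1 was highest and every knockout lay above wild types 2 and 3. Medians were 0.14 for other complement genes, 0.10 for interferon response genes, 0.03 for classical MHC class I genes, 0.09 for macrophage growth factors and chemoattractants, 0.13 for blood genes, −0.08 for osteoclast genes and −0.0046 for vessel genes. EdgeR called 0 genes in each of these lists, and among vomeronasal neuron genes it called Gnao1, the G protein alpha subunit of basal vomeronasal neurons (log2 −0.41, SE 0.05, adjusted p = 0.0143). That call was lost in 5 of the 6 fits with 1 library left out (adjusted p 0.0575 to 0.0854), at log2 differences of −0.38 to −0.43 over all 6. It was also lost without scaling factors (log2 −0.44, adjusted p = 0.0691) and with males only (log2 −0.43, adjusted p = 0.146).

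Sex was compared with genotype as a term, over 2 females and 4 males. EdgeR called 7 of 16679 genes (0.042%), and 0 of the 37 listed genes were among them, while 3 had an unadjusted p under 0.05 (Ms4a1, Coro1a and Tyrobp) beside 5.5% of all genes. The median female minus male log2 difference was 0.11 over the listed genes and −0.00043 over all genes. Ms4a1 had the lowest adjusted p of the listed genes, 0.839 by edgeR, at a log2 difference of 1.36 (SE 0.31), with 25 reads in wild type 2 and 46 in knockout 3, the 2 females, and 9 to 16 in the 4 males. With 1 female per genotype, a sex effect and the value of a single mouse cannot be told apart within a genotype.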

How the data were processed

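Poly(A) RNA libraries (directional kit) from vomeronasal organs of 3 wild-type and 3 knockout mice were analysed. Per the submitters' processing notes, reads were trimmed with Trim Galore 0.6.6 and quantified with Salmon 1.9.0 on mm10/GRCm38. Per the file headers, the authors deposited estimated counts, TPM and effective lengths for 117081 transcripts. The annotation release is not given in the sources used here.

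Transcripts were matched by identifier, without version, to GENCODE vM21 (0.277% to 0.355% of reads unmatched) and summed per gene. Estimated counts were rounded, scaled by TMM, filtered with filterByExpr (minimum count 10) and tested with edgeR 4.0.16 (quasi-likelihood F test, genotype term, Benjamini-Hochberg adjustment over all 16679 genes, called at adjusted p below 0.05) in R 4.3.3. The sex test added genotype as a term. DESeq2 1.42.0, other scalings, filters, an effective-length offset, a replicate block, males only and leave-one-out fits were alternatives. The main edgeR fits were also run on simulated counts, and no result of that run is used here. The common biological coefficient of variation was 12.8%. Shared 31-base words were counted over all quantified transcripts. Start-site sequences are from RefSeq (GRCm38.p6).

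All listed genes, Cnpy1 and called context genes are named, and markers at or near 0 may be. The 2 most abundant genes are named for some context lists only. These are the class II machinery, T and NK cell, B and plasma cell, neutrophil and marrow, and other macrophage lists. Other context genes were named after their values were seen, as said where they appear. The listed genes and context lists were chosen with earlier results of these data known. Labels call the mice littermates and biological replicates, with no litter or batch given. Intervals of depth cover counting error only.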

Additional observations from a re-analysis of the deposited data

How the results depend on the processing

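Over 14 alternatives the 37 listed genes kept a positive median log2 difference (0.14 to 0.23), with 28 to 34 of them above 0. EdgeR's 127 genotype calls became 409 with DESeq2 (92 higher, 317 lower), 76 with males only and 69 to 96 with 1 library left out, where fewer samples enter. The 7 sex calls became 58 with DESeq2, 12 with low counts kept and 4 to 10 with 1 library left out. Of the listed genes, 0 were called in the main test, 2 with DESeq2, 1 (Lyz2) with low counts kept (0.695% of all genes) and 0 to 2 with 1 library left out. The median coefficient of variation was 6.30% to 15.5% in knockouts and 6.35% to 7.50% in wild types with 1 library left out.

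Signs turned without scaling factors for Mrc1 (−0.014), Cd74 (−0.015) and H2-Eb1 (−0.017), and with males only for Trem2 (0.10), Cd163 (0.12), Cd74 (−0.00020) and Cd79b (−0.023). With 1 library left out, log2 differences ran from −0.0070 to 0.16 for Aif1, −0.16 to 0.12 for Trem2, −0.062 to 0.095 for Mrc1, −0.23 to 0.15 for Cd163, −0.032 to 0.085 for Cd74, −0.075 to 0.068 for H2-Aa, −0.021 to 0.12 for H2-Ab1, −0.056 to 0.094 for H2-Eb1, −0.86 to 0.043 for Cd8a, −0.54 to 0.24 for Nkg7 and −0.088 to 0.20 for Cd79b. The cause was not tested. The log2 difference moved by over 1.5 times in at least 1 of these 6 fits for 29 of the 37 listed genes, and for the other 8 (Ptprc, Itgam, Ctss, Lyz2, Irf8, C1qa, Cd4 and Jchain) it did not.

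Replicate numbers are shared between genotypes, but no label says that they mark pairs, so the numbers were not taken as pairs. The deviations of same-numbered mice correlated at 0.28, −0.06 and 0.31. Those of mice with different numbers correlated at −0.41 to 0.20. Wild types 1 and 3 correlated best with their own number, and wild type 2 did not. With the replicate block edgeR called 154 genes, among them 1 listed gene, Lyz2 (0.74, adjusted p = 0.0195). Genes under about 50 reads (Cd8a, Nkg7, Cd79a, Ms4a1) have standard errors of 0.41 to 0.55, so modest differences were not detectable at this depth.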

Other observations

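The genes named here other than Jchain were chosen after their values were seen. Igha, the heavy chain of IgA, had 8, 39 and 120 reads in wild types and 254, 210 and 92 in knockouts, a log2 fold change of 1.94 (adjusted p by edgeR 0.388, SE 0.72). Without wild type 3 its log2 difference was 3.04. The groups overlapped by knockout 3, which was also the lowest knockout for Jchain. Pigr, the epithelial receptor that carries IgA with its J chain, measured 907, 924 and 731 CPM in wild types and 1203, 935 and 1232 CPM in knockouts, and DESeq2 gave an adjusted p of 0.027 where edgeR gave 0.32. On the CPM scale knockout 2 lay just above wild type 2 for Pigr, so the groups did not overlap, with the knockouts higher, as in 7.22% of all tested genes. On the TPM scale the groups of Pigr overlapped, with knockout 2 at 289 and wild type 2 at 342.

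Of 18 genes of the interferon response list, 16 had their highest CPM in knockout 1, beside 17.5% of all tested genes. Rsad2, an antiviral enzyme, measured 34.2 CPM there and 12.2 to 14.9 CPM in the other 5 mice. Ifit1, which binds foreign RNA, measured 88.1 CPM against 39.7 to 48.2 CPM, and the chemokine Cxcl10 measured 4.65 CPM against 0.737 to 1.24 CPM. None was called between genotypes by edgeR.

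Ccr2, the chemokine receptor of circulating monocytes, measured 9.23, 10.6 and 9.04 CPM in wild types and 14.8, 10.04 and 19.0 CPM in knockouts. The order of the knockouts was that of S100a9, with knockout 2 inside the wild types (log2 0.61, adjusted p by edgeR 0.341, SE 0.20).

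Ngp, a granule protein of immature neutrophils, had 119 reads in wild type 2 and 3 to 35 in the other 5 mice. Camp, another granule protein, had 58 reads in wild type 2 and 3 to 6 elsewhere.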
